A study of Homo sapiens with 4 samples.

Results

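The data cover 10 growth factor response genes outside the AP-1 family, measured in TPC1 cells after inhibition of RET and FGFR together or of RET alone. They are the early growth response genes EGR1, EGR2 and EGR3, the immediate early response genes IER2, IER3 and IER5, the proto-oncogene MYC, and the pleckstrin homology-like domain genes PHLDA1, PHLDA2 and PHLDA3. They were chosen with earlier results of these data known and were matched by gene symbol. All 10 were found among the 20372 genes of the deposited table. TPC1 is a human papillary thyroid cancer cell line in which a fusion of CCDC6 and RET gives a constitutively active RET kinase. One group received the RET inhibitor BLU6864 together with the FGFR inhibitor BGJ398 for 24 h (RETi + FGFRi, 2 libraries), and the other received BLU6864 alone for 24 h (RETi, 2 libraries). The dose is labelled 100 µM, but the study's methods write that figure with nM as its unit, and which holds could not be settled. Since the RET inhibitor was present in both groups, the comparison measures what FGFR inhibition added and says nothing of RET inhibition itself. Separate cultures are not named in the labels, so p-values measure only the spread between libraries, which may be technical.

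When a growth factor receptor activates RAS, RAF, MEK and ERK, ERK and its downstream kinases phosphorylate transcription factors that are already bound to DNA, among them the ETS factors that sit beside serum response factor. Genes switched on in this way without new protein synthesis are called immediate early genes, and EGR1 and IER2 are classical examples. MYC, IER3 and PHLDA1 are also raised by ERK signaling, and PHLDA1 is often used as a readout of ERK pathway output in cancer cells. PHLDA2 and PHLDA3 belong to the same protein family but are known for other controls, since PHLDA2 is an imprinted gene that limits placental growth and PHLDA3 is a p53 target whose product restrains AKT.

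Each library held between 24695040 and 27457040 counts, and 12794 genes passed the filter on low counts. Libraries of a group differed by more than sampling noise. The chi-square per degree of freedom was 13.4 between the RETi + FGFRi libraries and 7.65 between the RETi libraries. None were therefore merged in the tests, and counts were summed by group only for the ratios given for EGR2 and EGR3. Of 8 thyroid follicular markers PAX8 was by far the most abundant, at 18290 to 20770 normalised counts over the 4 libraries. Of the list 4 stayed under 10, among them TSHR, SLC5A5 and NKX2-1. The remaining markers were above 10 in every library, far below PAX8, and did not all move in the same direction. The list summed to 18900 to 21230 after RETi + FGFRi and to 20230 to 21430 after RETi, nearly all of it PAX8. Of 3 endothelial markers VWF and CDH5 stayed under 10, and KDR had 54.0 and 48.3 normalised counts after RETi + FGFRi, against 43.2 and 21.1 after RETi. The 3 markers of thyroid C cells were all under 10. The 6 epithelial markers summed to 2251 to 2557 after RETi + FGFRi and to 3285 to 3299 after RETi, nearly all of it keratins, with EPCAM and CDH1 under 10. The 6 fibroblast markers summed to 256.8 to 277.4 after RETi + FGFRi and to 241.3 to 286.7 after RETi, with COL1A2, COL3A1 and DCN under 10. Of these, LUM had 105.9 and 101.7 after RETi + FGFRi, against 69.6 and 63.3 after RETi. Of 6 immune markers CD68 was the 1 that reached 10, and the list summed to 2303 to 2671 after RETi + FGFRi and to 2551 to 2622 after RETi. The part of these markers in the results was not tested.

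Promoter sequences from RefSeq (build GRCh38.p14) were available for 5 of the 10 genes, namely EGR1, EGR2, IER2, IER5 and PHLDA1, and the other 5 (EGR3, IER3, MYC, PHLDA2 and PHLDA3) had no entry. They are shown because the genes differed in their response and because ERK-responsive factors bind sites of this kind. The 250 bases before each start site were searched on both strands. The motifs were the CArG box of serum response factor, TGACG (the core of CREB sites) and CCGGAA (a form of ETS site). GCGNGGGCG (the site of the EGR proteins themselves), TGANTCA (AP-1) and CACGTG (the E-box of MYC and MAX) were also searched. Matches are in capitals in the stretches below, which are written 5′ to 3′ on the strand of the gene and end 1 base before the start site. No matches of different motifs overlapped in them.
EGR1, chr5:138465279-138465478, plus strand: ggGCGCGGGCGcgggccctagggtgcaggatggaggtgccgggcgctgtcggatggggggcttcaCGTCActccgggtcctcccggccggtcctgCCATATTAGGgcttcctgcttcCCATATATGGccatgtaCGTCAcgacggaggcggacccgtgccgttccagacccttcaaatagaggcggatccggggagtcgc
EGR2, chr10:62816367-62816486, minus strand: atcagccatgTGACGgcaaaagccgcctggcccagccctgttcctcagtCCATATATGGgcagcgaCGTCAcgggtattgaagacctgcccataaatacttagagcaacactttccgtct
IER2, chr19:13150211-13150410, plus strand: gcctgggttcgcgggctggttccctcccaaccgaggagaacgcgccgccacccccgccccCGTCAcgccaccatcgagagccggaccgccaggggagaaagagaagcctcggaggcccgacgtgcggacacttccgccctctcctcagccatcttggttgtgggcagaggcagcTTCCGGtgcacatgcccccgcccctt
IER5, chr1:181088600-181088699, plus strand: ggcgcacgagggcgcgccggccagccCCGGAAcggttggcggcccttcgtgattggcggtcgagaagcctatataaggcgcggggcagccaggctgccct
PHLDA1, chr12:76031777-76031976, minus strand: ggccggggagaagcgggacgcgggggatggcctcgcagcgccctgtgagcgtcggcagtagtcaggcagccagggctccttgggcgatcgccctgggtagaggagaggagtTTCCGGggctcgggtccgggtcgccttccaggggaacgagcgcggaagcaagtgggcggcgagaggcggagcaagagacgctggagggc

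EGR1 held 2 CArG boxes, CCATATTAGG from -105 to -96 and CCATATATGG from -83 to -74 relative to the start site, and 1 of the 3 EGR2 start sites held the same CCATATATGG from -71 to -62. A CArG box occurred in 1.16% of the 35116 human promoter windows of this length. The TGACG core, found in 21.2% of windows, was present on 1 strand or the other in EGR1, in IER2 and at that EGR2 start site. IER2, IER5 and PHLDA1 had no CArG box in the window but each had 1 match to CCGGAA, which 14.5% of windows held. ETS sites of other letters were not searched for in any of the 5 genes, EGR1 included. The EGR site GCGNGGGCG (8.41% of windows) was found only in EGR1 among the 5 genes, from -198 to -190. TGANTCA (6.57% of windows) was in none of the 5, and CACGTG (6.34% of windows) only at another EGR2 start site, from -30 to -25. These are matches of letters, which do not show that a factor bound there in TPC1 cells.

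Most of these genes, which were chosen with earlier results of these data known, were lower after RETi + FGFRi. Of the 10 genes, 8 had enough reads to be tested and EGR2 and EGR3 did not. The test was edgeR on the raw counts, with p adjusted over all 12794 genes, and a gene was called at an adjusted p under 0.05. In this test 6 genes fell (EGR1, IER2, IER3, MYC, PHLDA1 and PHLDA2) and 2 did not pass (IER5 and PHLDA3), against 11.3% of all tested genes lower. None of the 8 rose in edgeR, where 0 were higher at an unadjusted p under 0.05 either, and 0 were higher in DESeq2, which called 5 of them lower, against 8.10% of the genes it tested. The median log2 fold change of the 8 genes was -0.41, against 0.00 over all tested genes. Both RETi + FGFRi libraries lay below both RETi libraries for 7 of the 8 genes in normalised counts, where 33.0% of all tested genes did so and the groups did not overlap, in either direction, in 65.1%. The methods of the study give thresholds, a log2 fold change below -0.5 with p under 0.01, for DESeq2. When these were applied to the edgeR fit instead, 3 genes were lower (EGR1, PHLDA1 and PHLDA2) against 3.03% of tested genes. None was above 0.5 with such a p, against 4.96%. IER3 stood at the edge of that rule with a log2 fold change of -0.4996.

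**Figure D1:**
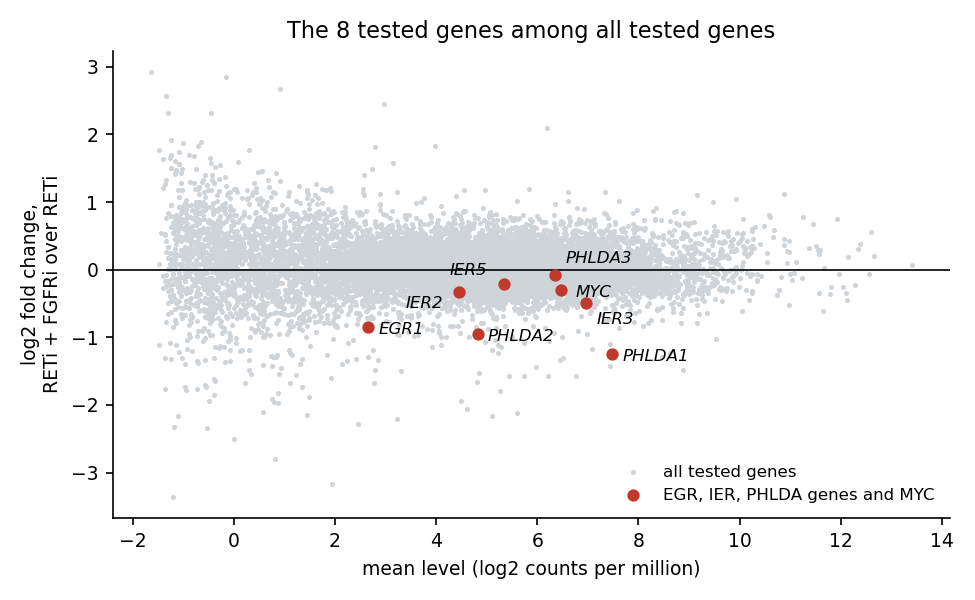
Each point is a tested gene, with its mean level in log2 CPM on the horizontal axis and its log2 fold change, RETi + FGFRi over RETi, on the vertical axis; the 8 tested EGR, IER, PHLDA and MYC genes are red and labelled. PHLDA1 (-1.25), PHLDA2 (-0.96) and EGR1 (-0.85) lie below most genes of like level, whereas PHLDA3 (-0.08) and IER5 (-0.21) lie within the cloud.

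EGR1 encodes a zinc finger transcription factor that reports recent ERK activity. EGR1 (ENSG00000120738, chromosome 5, 137801179 to 137805004, hg19) had 129.2 and 104.7 normalised counts in RETi + FGFRi replicates 1 and 2, against 199.1 and 222.5 in RETi replicates 1 and 2. Normalised counts are the raw counts divided by 1 factor per library, and the groups did not overlap. EGR1 fell 1.81-fold, a log2 difference of -0.85 (SE 0.16, adjusted p = 0.0039 by edgeR), and 1.45% of tested genes had a lower one. It is a modestly expressed gene, with 122 and 104 raw counts after RETi + FGFRi and 203 and 232 after RETi. Its replicates therefore carried more counting error than those of the other called genes. The call held without any single library, with log2 fold changes between -1.01 and -0.70.

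EGR2 and EGR3 encode related zinc finger factors and had very few reads in TPC1 cells at 24 h under either treatment. EGR2 (ENSG00000122877, chromosome 10, 64571756 to 64679660) had 8 and 5 raw counts in the RETi + FGFRi libraries and 6 and 5 in the RETi libraries. EGR3 (ENSG00000179388, chromosome 8, 22545172 to 22550815) had 3 and 4 raw counts after RETi + FGFRi and 5 and 4 after RETi. The groups overlapped in both genes. Over the summed counts of each group, the ratio of CPM (counts scaled to the size of the library) was 1.23 for EGR2 (95% exact binomial interval 0.508 to 3.03) and 0.809 for EGR3 (0.256 to 2.44). These intervals cover counting error only. A change of the size seen for EGR1 was not detectable in either gene at this depth, although EGR2 shares a CArG box with EGR1.

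The IER genes are named for their early induction and are not close homologs as a group. IER3 encodes a small protein that modulates cell survival and ERK dephosphorylation, whereas IER2 and IER5 encode related nuclear proteins. IER3 (ENSG00000137331, chromosome 6, 30710976 to 30712331) had 2640 and 2832 normalised counts in RETi + FGFRi libraries, against 3883 and 3837 in RETi libraries. These groups lay well apart, and IER3 fell 1.41-fold (log2 fold change -0.50, SE 0.074, adjusted p = 0.0013, edgeR). The call held without any single library, with log2 fold changes of -0.54 to -0.45.

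IER2 (ENSG00000160888, chromosome 19, 13261229 to 13265722) had 541.2 and 488.3 normalised counts after RETi + FGFRi, against 630.6 and 655.9 after RETi. The groups did not overlap, but the gap between them was not much wider than the spread of the RETi + FGFRi libraries. IER2 fell 1.25-fold (log2 fold change -0.33, SE 0.094, adjusted p = 0.029, edgeR). This call was lost in DESeq2 (adjusted p = 0.088), and in edgeR without RETi replicate 1 (adjusted p = 0.083), RETi replicate 2 (0.17) or RETi + FGFRi replicate 2 (0.10). In the deposited coordinates IER2 lies 32 bases from STX10, whose log2 fold change was -0.04.

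IER5 (ENSG00000162783, chromosome 1, 181057638 to 181059977) had 1011 and 979.6 normalised counts after RETi + FGFRi, against 1174 and 1120 after RETi. The groups did not overlap, yet the difference did not pass after adjustment (log2 fold change -0.21, SE 0.079, adjusted p = 0.081, edgeR). The 95% interval of that log2 difference, from -0.38 to -0.03, allows a fall close to that of IER2. Counted within each library, which removes any scaling between libraries, IER3 had 2.61 and 2.89 counts per count of IER5 in RETi + FGFRi libraries and 3.31 and 3.43 in RETi libraries. IER3 was thus lower relative to IER5 in both RETi + FGFRi libraries. The same ratio of IER2 to IER5 was 0.535 and 0.499 after RETi + FGFRi and 0.537 and 0.586 after RETi, values that lay almost side by side.

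**Figure D2:**
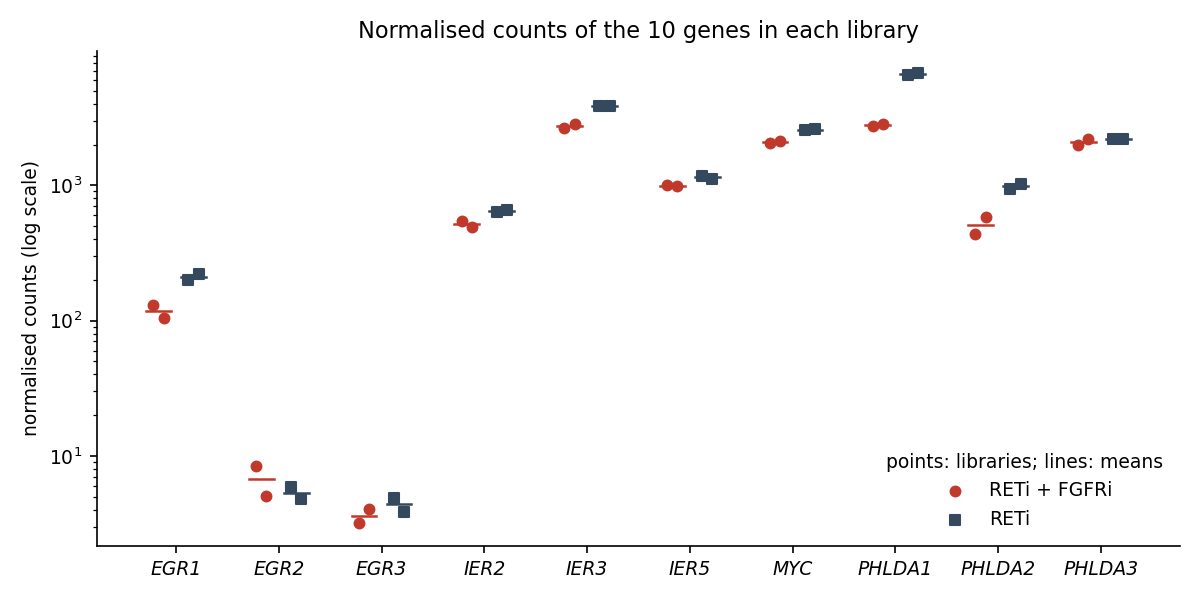
Normalised counts on a log scale for each of the 10 genes, with RETi + FGFRi libraries as red circles to the left of RETi libraries as dark squares and short lines for group means. The widest gaps are those of PHLDA1, at 2718 and 2849 after RETi + FGFRi against 6522 and 6727 after RETi, and of PHLDA2, whereas PHLDA3, EGR2 and EGR3 overlap.

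MYC encodes the basic helix-loop-helix transcription factor that, with its partner MAX, drives genes of growth and ribosome production. MYC (ENSG00000136997, chromosome 8, 128747680 to 128753674) had 2064 and 2116 normalised counts after RETi + FGFRi, against 2553 and 2610 after RETi. The libraries of each group lay close together and the groups did not overlap. MYC fell 1.24-fold (log2 fold change -0.31, SE 0.072, adjusted p = 0.012, edgeR), and 11.7% of tested genes had a lower log2 fold change. It was also called in DESeq2 (adjusted p = 0.012), but not in edgeR without RETi replicate 1 (adjusted p = 0.060) or RETi replicate 2 (0.098), where the log2 fold changes were -0.32 and -0.29.

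PHLDA1 was the member that fell most. PHLDA1 (ENSG00000139289, chromosome 12, 76419227 to 76427712) had 2718 and 2849 normalised counts in RETi + FGFRi libraries, against 6522 and 6727 in RETi libraries. The libraries of each group lay close together and the groups far apart. PHLDA1 fell 2.38-fold (log2 fold change -1.25, SE 0.075, adjusted p = 3.5e-06, edgeR), and it ranked 14 of 12794 genes by p. Its log2 fold change stayed between -1.28 and -1.22 without any single library.

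PHLDA2 (ENSG00000181649, chromosome 11, 2949503 to 2950685) had 434.2 and 577.9 normalised counts after RETi + FGFRi, against 935.5 and 1025 after RETi. The RETi + FGFRi libraries lay some way apart, but both were well below the RETi libraries. PHLDA2 fell 1.94-fold (log2 fold change -0.96, SE 0.12, adjusted p = 0.00063, edgeR), and the call held without any single library, from -1.17 without RETi + FGFRi replicate 2 to -0.76 without RETi + FGFRi replicate 1. PHLDA2 lies in an imprinted cluster with SLC22A18 and CDKN1C, so its neighbours were examined. Of 7 tested genes around it 1 fell (14.3%, against 11.3% of all tested genes), CD81, a tetraspanin gene (log2 fold change -0.30, adjusted p = 0.018, edgeR), which did not pass without RETi replicate 1 (adjusted p = 0.080) or RETi replicate 2 (0.16). More of these neighbours passed without RETi + FGFRi replicate 1, as did more of all tested genes. SLC22A18, 3027 bases away, had a log2 fold change of -0.25 (adjusted p = 0.30, edgeR), and CDKN1C, a CDK inhibitor gene, one of 0.27 (adjusted p = 0.058, edgeR).

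PHLDA3 (ENSG00000174307, chromosome 1, 201434620 to 201438365) had 1969 and 2215 normalised counts after RETi + FGFRi, against 2203 and 2211 after RETi. The groups overlapped, and the log2 difference was -0.08 (SE 0.078, adjusted p = 0.49 by edgeR) with a 95% interval of -0.25 to 0.09. That interval excludes a change of the size found for PHLDA1 or PHLDA2. Within each library there were 1.38 and 1.29 PHLDA1 counts per PHLDA3 count after RETi + FGFRi, against 2.96 and 3.04 after RETi. The PHLDA2 to PHLDA3 ratio was likewise lower after RETi + FGFRi (0.221 and 0.261) than after RETi (0.425 and 0.464). The PHLDA family thus split, and the split was seen inside each library without any scaling between libraries. With 2 libraries against 2 the smallest p of a 2-sided exact permutation test is 0.333, so no test of these ratios is given.

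**Figure D3:**
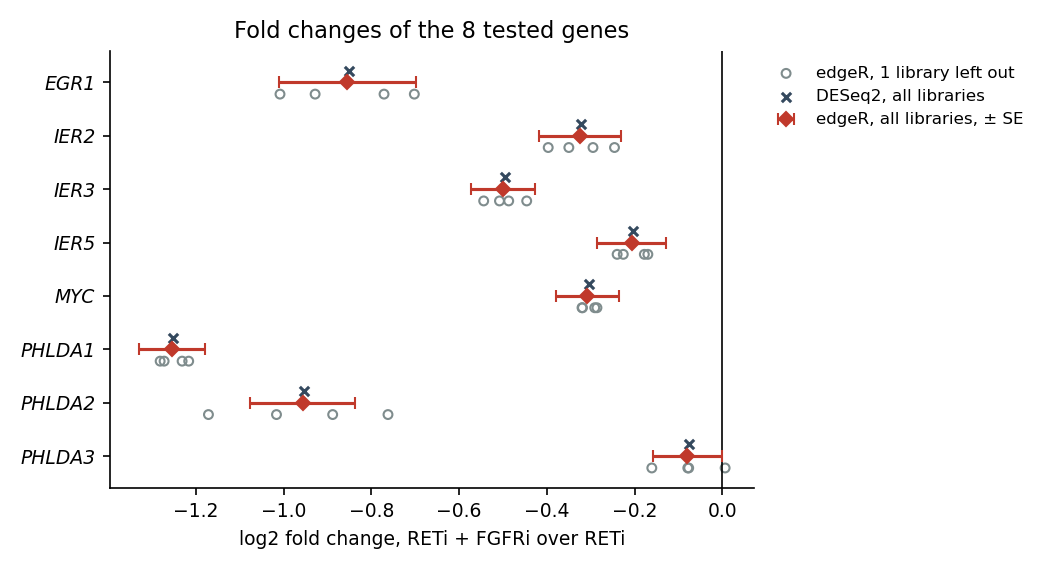
Log2 fold changes, RETi + FGFRi over RETi, of the 8 tested genes: red diamonds with bars are edgeR estimates with their SE, open circles are the same fit with 1 library left out, and crosses are DESeq2. PHLDA1 stays between -1.28 and -1.22 when a library is left out, PHLDA2 spreads from -1.17 to -0.76, and PHLDA3 lies on both sides of 0, at 0.006 without RETi + FGFRi replicate 1.

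Levels of different genes were compared as CPM per kilobase of the canonical transcript (GENCODE 44). IER3 was highest in both groups, at 82.7 ± 1.52 after RETi + FGFRi and 119.3 ± 2.17 after RETi (SD, n = 2 each). After RETi + FGFRi the next in order were PHLDA3 at 28.4 ± 1.48, MYC at 21.0 ± 0.286, PHLDA2 at 20.5 ± 3.49 and PHLDA1 at 17.6 ± 0.0339. MYC and PHLDA2, and PHLDA2 and PHLDA1, did not differ there beyond the spread of PHLDA2. After RETi the next in order were PHLDA1 at 42.8 ± 0.524, PHLDA2 at 40.7 ± 2.24, PHLDA3 at 30.7 ± 0.209 and MYC at 26.5 ± 0.163. The difference between PHLDA1 and PHLDA2 there was within the spread of PHLDA2. On this scale PHLDA1 was below PHLDA3 after RETi + FGFRi and above it after RETi. That order rests on the lengths used, 5913 bases for PHLDA1 and 2749 for PHLDA3. In counts not divided by length PHLDA1 was above PHLDA3 in every library. IER2 and IER5 followed, at 9.14 ± 0.948 and 8.87 ± 0.477 after RETi + FGFRi with overlapping libraries, and at 11.7 ± 0.213 and 10.4 ± 0.447 after RETi. EGR1 was far lower, at 1.40 ± 0.250 after RETi + FGFRi and 2.57 ± 0.177 after RETi, and EGR2 and EGR3 were no higher than 0.109 in any library.

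Other immediate early genes did not move as a block. The list holds 24 genes induced early by growth factors, apart from the 10 genes and AP-1, and 21 were tested. Of these 3 fell, 2 rose and 16 did not pass, with a median log2 fold change of -0.01. The share that fell, 14.3%, was near the 11.3% of all tested genes. NR4A1, an orphan nuclear receptor gene, had 115.4 and 111.7 normalised counts after RETi + FGFRi and 175.5 and 177.4 after RETi (log2 fold change -0.64, adjusted p = 0.010, edgeR). MCL1, an anti-apoptotic BCL2 family gene, and CTGF, a matricellular protein gene named after its value was seen, had log2 fold changes of -0.28 and -0.29. MCL1 did not pass without RETi replicate 1 (log2 fold change -0.264) or RETi replicate 2 (-0.289), and NR4A1 did not pass without RETi replicate 2 (-0.63). ATF3, a stress-induced transcription factor gene, rose, with 140.8 and 153.0 normalised counts after RETi + FGFRi and 103.0 and 69.0 after RETi (log2 fold change 0.77, adjusted p = 0.017, edgeR). IER5L, a relative of IER5, rose as well (log2 fold change 0.34, adjusted p = 0.0085, edgeR), whereas IER5 had -0.21. ATF3 had a log2 fold change of 1.09 without RETi replicate 1 and of 0.51 without RETi replicate 2 (adjusted p = 0.16, edgeR), and IER5L did not pass without RETi replicate 1 (adjusted p = 0.063, edgeR) or RETi replicate 2 (0.076). Fewer genes of this list passed without either RETi library, as over all tested genes. More of the list rose without RETi + FGFRi replicate 2, where the number over all tested genes changed little.

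Serum response factor, its ETS partners and the kinases and cofactors around them are known regulators of immediate early genes, and their own transcripts were counted. Of 21 tested genes for serum response factor, its partners, their kinases and EGR cofactors, 3 fell, 3 rose and 15 did not pass (median log2 fold change -0.03). The shares, 14.3% in each direction, were near the 11.3% lower and 12.8% higher of all tested genes. ELK3, a ternary complex ETS factor gene, had 2957 and 2999 normalised counts after RETi + FGFRi and 4348 and 4368 after RETi (log2 fold change -0.55, adjusted p = 0.00075, edgeR). The ERK-activated ribosomal S6 kinase gene RPS6KA2 also fell (log2 fold change -0.40, adjusted p = 0.0045, edgeR), as did RPS6KA4, which encodes an MSK kinase (-0.33). The histone acetyltransferase genes EP300 and CREBBP rose with log2 fold changes of 0.40 and 0.41, and the EGR corepressor gene NAB1 with 0.29. RPS6KA4 and NAB1 were named after their values were seen. EP300 and CREBBP had 1730 and 2402 normalised counts in RETi replicate 1 but 2184 and 3062 in RETi replicate 2. Without RETi replicate 1 their log2 fold changes were both 0.25, and neither gene passed. Fewer genes of the list rose in that fit, as over all tested genes.

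**Figure D4:**
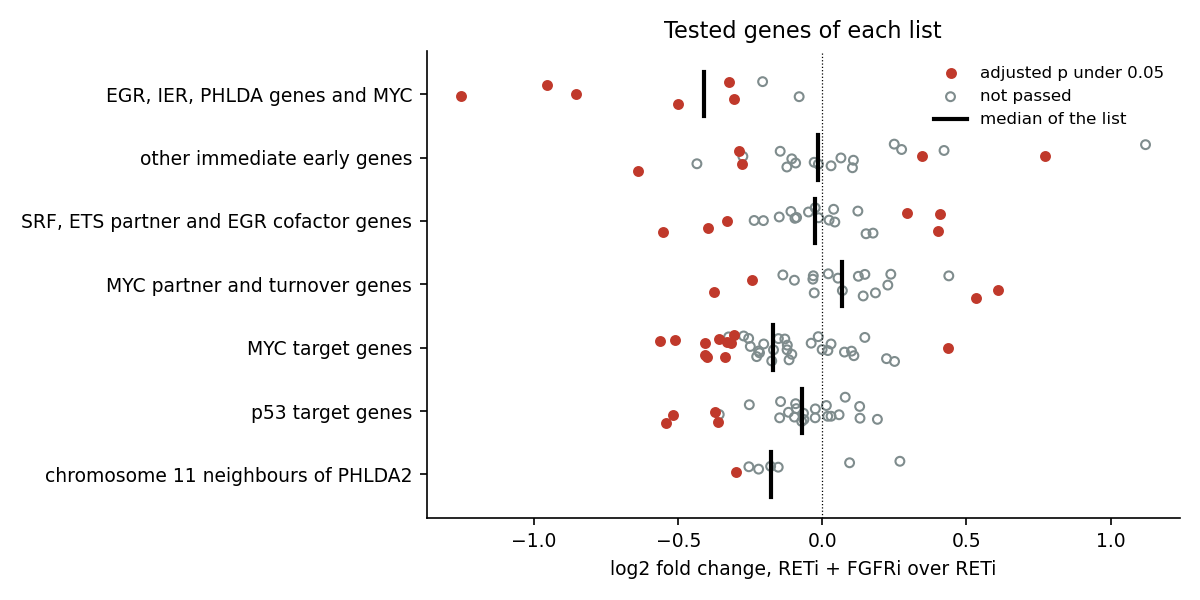
Log2 fold changes, RETi + FGFRi over RETi, of the tested genes in each list, filled where the adjusted p was under 0.05 in edgeR and open where it was not, with a black bar at the median of the list. The 8 EGR, IER, PHLDA and MYC genes have a median of -0.41, the MYC targets one of -0.17, and the other immediate early genes one of -0.01.

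Genes of the MYC network and MYC targets were examined beside MYC itself. Of 19 tested partner and turnover genes 2 fell, 2 rose and 15 did not pass, close to the 11.3% and 12.8% of all tested genes. Those lower were RUVBL1 (log2 fold change -0.37, adjusted p = 0.0070, edgeR) and RUVBL2 (-0.24, adjusted p = 0.042, edgeR), which encode paired ATPases that act with MYC. Those higher were MYCBP2, a ubiquitin ligase gene (log2 fold change 0.53), and TRRAP, a MYC cofactor gene (0.61, with 0.39 without RETi replicate 1 and 0.88 without RETi replicate 2). RUVBL2 did not pass in DESeq2 (adjusted p = 0.090). In edgeR it did not pass without RETi replicate 1 (log2 fold change -0.206), RETi replicate 2 (-0.276) or RETi + FGFRi replicate 2 (-0.195). RUVBL1 did not pass without RETi replicate 1 (log2 fold change -0.325). Fewer partner and turnover genes fell without either RETi library, as over all tested genes. Without RETi + FGFRi replicate 2 fewer fell and more rose, where the numbers over all tested genes changed little. Of 38 tested MYC targets 10 fell, 1 rose and 27 did not pass, a share lower of 26.3%, with a median log2 fold change of -0.17. SLC19A1, the reduced folate carrier gene, had 319.8 and 321.1 normalised counts after RETi + FGFRi and 457.0 and 489.1 after RETi (log2 fold change -0.56, adjusted p = 0.0036, edgeR). The ribosome assembly gene RRS1 (-0.51), the spermidine synthase gene SRM (-0.41) and the transferrin receptor gene TFRC (-0.41) also fell, although SRM (adjusted p = 0.053, edgeR) and TFRC (0.061) did not pass without RETi replicate 2. The target that rose was NPM1, a nucleolar chaperone gene named after its value was seen (log2 fold change 0.43). Fewer targets fell without either RETi library, as over all tested genes. More targets fell without RETi + FGFRi replicate 2, where the number over all tested genes changed little. The number of targets that rose also changed with the library left out.

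Other p53 targets were counted because PHLDA3 is one. Of 25 tested genes 4 fell and 21 did not pass (median log2 fold change -0.07), and the share that fell was 16.0%, against 11.3% of all tested genes. Those lower were GADD45A, a stress-induced growth arrest gene (log2 fold change -0.54, adjusted p = 0.0035, edgeR), the polo-like kinase genes PLK2 (-0.37) and PLK3 (-0.52), and AEN, an apoptosis nuclease gene (-0.36). PLK3 had a log2 fold change of -0.76 without RETi + FGFRi replicate 1 and of -0.30 without RETi + FGFRi replicate 2 (adjusted p = 0.079, edgeR), and did not pass without RETi replicate 2 (0.096) either. AEN did not pass in DESeq2 (adjusted p = 0.066), or in edgeR without RETi replicate 1 (0.18), without RETi replicate 2 (0.061) or without replicate 2 of RETi + FGFRi (0.096). PLK2 did not pass without RETi replicate 1 (adjusted p = 0.11, edgeR) or RETi replicate 2 (0.050). Fewer p53 targets fell without either RETi library, as over all tested genes. Fewer also fell without RETi + FGFRi replicate 2, where the number over all tested genes changed little.

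Genes whose pattern over the 4 libraries was like that of PHLDA1 were sought among 11273 tested genes with at least 50 normalised counts on average. Among the closest were TSPAN18, a tetraspanin gene, with a root mean square difference of 0.044 in centred log2 CPM, and PADI3, a peptidylarginine deiminase gene, with one of 0.045. TSPAN18 had 543.3 and 561.8 normalised counts after RETi + FGFRi, against 1205 and 1310 after RETi, and PADI3 had 93.2 and 96.7 after RETi + FGFRi, against 219.7 and 246.4 after RETi. With 4 libraries in 2 groups, this likeness is set mainly by the fold change. No member overlapped another gene of the table in the deposited coordinates, and neither neighbour of PHLDA1, IER3 or EGR1 passed in edgeR. Of genes named after their values were seen, CSRP1 (14293 bases from PHLDA3) had a log2 fold change of -0.35 (adjusted p = 0.011, edgeR) and NRBF2 (213390 bases from EGR2) one of 0.42 (adjusted p = 0.0042, edgeR).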

How the data were processed

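The 10 genes and the gene lists were chosen with earlier results of these data known. Per the labels, RNA of TPC1 cells was sequenced from TruSeq libraries on a HiSeq instrument, with STAR 2.3, DESeq2 and hg19 named in the submitters' processing notes. The methods of the study name a later STAR release. The tool that counted reads and its strand setting were not given in the sources used here. For the 4 libraries, raw counts by gene were deposited, beside normalised counts (a signal: every raw count over the size factor of its library). Their own fold changes and p-values, deposited beside the counts, were not used. Coordinates of genes are those of the table (hg19, 1-based). Promoters and motif positions are GRCh38.

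The test was run on raw counts in R 4.3.3 by edgeR 4.0.16 (filterByExpr with a minimum of 10 counts, TMM factors, quasi-likelihood F-test, all 4 libraries, no covariates), with Benjamini-Hochberg adjustment over 12794 genes. The SE is the log2 fold change divided by the square root of F, and its 95% interval used 2 residual and 8.96 prior degrees of freedom. Alternatives were RLE normalisation, no filter, DESeq2 1.42.0, the replicate number as a block, leaving out each library and the thresholds of the study, applied to the edgeR fit. All 10 genes were named, and in each other list up to 4 tested genes with the smallest p. The genes like PHLDA1, the member with the smallest p, were the 3 non-members of at least 50 mean normalised counts with the smallest root mean square difference in centred log2 CPM. Some genes that these rules and lists hold are not reported here.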

Additional observations from a re-analysis of the deposited data

How the results depend on the processing

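In 8 tested genes and 8 alternatives, 57 of 64 comparisons kept the direction and side of the threshold. The exceptions were IER2 in DESeq2 (-0.32), IER2 when a library was left out (-0.40 to -0.25), MYC likewise (-0.32 to -0.29) and PHLDA3, which did not pass and turned to 0.006 in the range of -0.16 to 0.006. The count of these genes that fell was 4 to 6 with 1 library left out and 3 at the thresholds of the study. Over all tested genes, 553 to 1503 were lower and 691 to 1942 higher with 1 library left out, and 388 lower and 634 higher at those thresholds.

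With 1 library left out, the counts lower and higher were 0 to 4 and 0 to 4 of the other immediate early genes, 2 to 4 and 0 to 3 of the SRF and cofactor genes, 0 to 2 and 2 to 4 of the MYC partners, 4 to 15 and 0 to 3 of the MYC targets, 1 to 5 lower of the p53 targets, and 0 to 2 and 0 to 1 of the PHLDA2 neighbours. DESeq2 called 1 MYC partner lower. Of 192 comparisons of single list genes named by the rule, 25 lost and 2 gained the threshold and 0 reversed. The causes were not tested. Replicate numbers are shared by the groups, but deviations of same-numbered libraries had a correlation of 0.023 over 11279 genes, so the numbers were not taken as pairs. With the replicate number as a block, 6 of the 8 genes fell, 1738 of all genes were lower and 2041 higher, and the counts lower and higher were 3 and 4 of the other immediate early genes, 4 and 3 of the SRF and cofactor genes, 2 and 3 of the MYC partners, 14 and 2 of the MYC targets and 1 and 1 of the PHLDA2 neighbours, with 6 p53 targets lower. EGR2 and EGR3 are limited by depth.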
